A study of Homo sapiens with 6 samples.

Results

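Potassium channel subunits were examined in C4-2B prostate cancer cells and in their enzalutamide resistant derivative. The members were all genes of the expression table whose symbol is KCN followed by letters and a final number, apart from 1 matching gene that is not reported here. This gave 94 genes out of 58024 in the table. C4-2B is a human castration resistant line of the LNCaP lineage, and enzalutamide is an antiandrogen drug. The resistant cells had been passaged in enzalutamide raised from 1 to 20 µM over at least 6 months and were afterwards kept at 5 µM, and a single resistant derivative was sequenced. Parental cells went through the same period in dimethyl sulfoxide, which the design text puts at 1% and the methods at a lower maximum. The protocol names 10 µM enzalutamide at RNA extraction in a way that does not settle whether the parental cells received it too. RNA-Seq was done on 3 parental and 3 enzalutamide resistant libraries, numbered 0 to 2 in each group, from total RNA with single-end reads of 50 bp. No source states that the libraries of a group came from separate cultures, so the p values measure the spread between these libraries, which may be technical.

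Potassium channels let potassium leave or enter cells along its electrochemical gradient and thereby set the membrane potential, cell volume and calcium entry. Pore-forming alpha subunits assemble around a shared selectivity filter, and auxiliary subunits change their gating or their delivery to the membrane. Voltage-gated alpha subunits (KCNA to KCND, KCNF to KCNH, KCNQ, KCNS and KCNV) open on depolarisation, with KCNF, KCNG, KCNS and KCNV acting as silent modifiers of other alpha subunits. Calcium- and sodium-activated channels (KCNM, KCNN, KCNT and KCNU) couple the membrane potential to ions inside the cell. Inward rectifiers (KCNJ) and tandem-pore-domain channels (KCNK, or K2P) act near the resting potential. LNCaP-lineage cells are known for a large current through the BK channel, the calcium-activated channel formed by KCNMA1.

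Expression is given in FPKM, fragments scaled to the length of the transcript and the size of the library, a scale that allows levels of different genes to be set side by side. The most common low value among genes with a single transcript, scaled by length, was taken as a single read. It put the depth of the libraries at about 13.5 to 20.4 M reads. Under this estimate a read on 2000 bases of transcript adds 0.0272 to 0.0412 FPKM. A value of 0 means that the gene is listed at 0, and genes at 0 throughout a group have no fold change here. The 8 luminal prostate markers, among them KLK2, KLK3, TMPRSS2, FOLH1, HOXB13, KRT8 and KRT18, were each expressed in both groups. Their summed level was 3768 to 4475 FPKM in parental and 882 to 933 FPKM in resistant libraries, and 5 of them were lower and 2 higher in the resistant cells. Of 9 neuroendocrine markers, 6 (CHGA, CHGB, ENO2, SCG2, SCG3 and SYP) were higher in the resistant cells and none was lower, while NCAM1 did not pass the test. The summed level of these 9 genes was 7.19 to 11.4 FPKM in parental and 209 to 233 FPKM in resistant libraries, with the transcription factor INSM1 at 0.0558 FPKM or less in every library. Leukocyte PTPRC and CD3E, endothelial CDH5 and basal TP63 were at 0.0531 FPKM or less throughout. The 3 basal, the 3 endothelial and the 4 leukocyte markers, each list summed on its own, came to at most 0.927, 1.14 and 1.18 FPKM in any library. Within these lists basal KRT14 and endothelial VWF were lower in the resistant cells, and 1 of the leukocyte markers was higher. Of the fibroblast markers, DCN was listed at 0 in the parental and at 3.63 to 4.35 FPKM in the resistant libraries, and LUM was higher as well, while the list of 5 summed to 6.65 to 8.92 FPKM in parental and 8.26 to 14.7 FPKM in resistant libraries. These marker changes went along with the group, and their part in the channel results was not tested.

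Enzalutamide resistant cells expressed potassium channel subunits in different proportions from parental cells at a similar summed level. Summed over the 94 members, the parental libraries held 163, 257 and 196 FPKM and the resistant ones 213, 186 and 205 FPKM, and these ranges overlap. In parental cells, KCNMA1 had the highest mean level, KCNK1 and KCNAB2 were at ranks 3 and 4, and KCNMA1 alone made up 30.6 to 35.4% of the sum. In resistant cells, KCNK9 and KCNMB4 came first with KCNIP3 at rank 4, and KCNMA1 made up 5.20 to 5.97%. KCNK9 went from rank 19 to rank 1 and KCNMB4 from rank 21 to rank 2 in mean level.

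**Figure D1:**
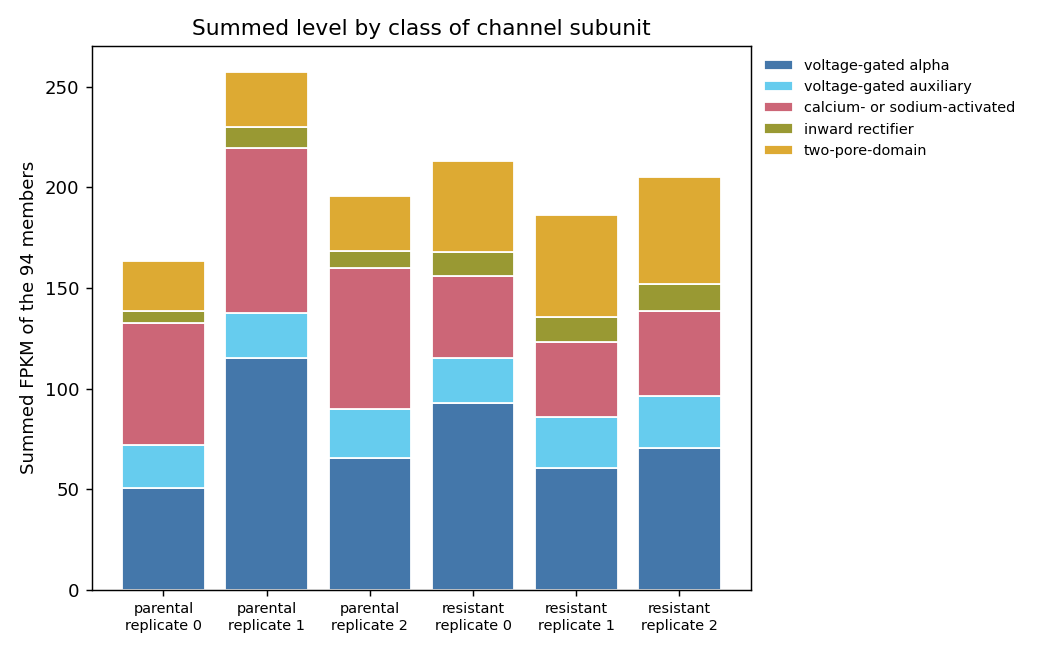
Stacked bars give the summed FPKM of the 94 members in each library, split by class of subunit. The sums overlap between the groups, while the calcium- and sodium-activated part is 60.6 to 82.3 FPKM in parental and 37.2 to 42 FPKM in resistant libraries, and the tandem-pore-domain part (two-pore-domain in the legend) is 24.9 to 27.5 FPKM and 45.3 to 53.5 FPKM.

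Of the 94 members, 53 averaged 0.1 FPKM or more across the 6 libraries and were tested with limma on log2(FPKM + 0.1), with adjustment over all genes tested. In the resistant cells, 22 were higher, 7 were lower and 24 did not pass the threshold of an adjusted p below 0.05. Over all 24468 genes tested, 22.1% were higher and 22.3% lower, or 44.4% in either direction. Over the 14787 protein-coding genes tested, 28.9% were higher and 26.7% lower, or 55.7% in either direction. Of the tested members, 41.5% were higher and 13.2% lower, which sets the share of higher calls above both backgrounds and that of lower calls below. The filter bears on this count, because 17 of the tested members had a parental mean below 0.1 FPKM and could pass only through their resistant values, and 14 of the 22 higher calls were of this kind. For the 34 members with at least 0.1 FPKM in both groups, 8 were higher and 6 lower, or 23.5% and 17.6%. Under the same limit 19.8% of all genes were higher and 24.6% lower, and 25.7% and 28.4% of protein-coding genes, so that the members' share of higher calls was near the background there. A change of at least 2-fold was also met by 21 of the higher and 6 of the lower members, where 15% and 13.6% of all genes and 17.7% and 13.2% of protein-coding genes met it. The median log2 fold change of the 53 was 0.74, against −0.05 over all genes tested, and it includes 7 genes at 0 in all parental libraries, each of which lies above it. The resistant values lay wholly above or wholly below the parental values in 36 of the 53 members, where 54.8% of all genes and 66.3% of protein-coding genes tested showed this. All 29 called members were among these 36. Resistant replicate 0 had the most genes above 0, at 27153 against 21956 to 24080 in the other libraries, and without it 22 members were higher and 5 lower. The share of all genes called without this library was not counted.

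**Figure D2:**
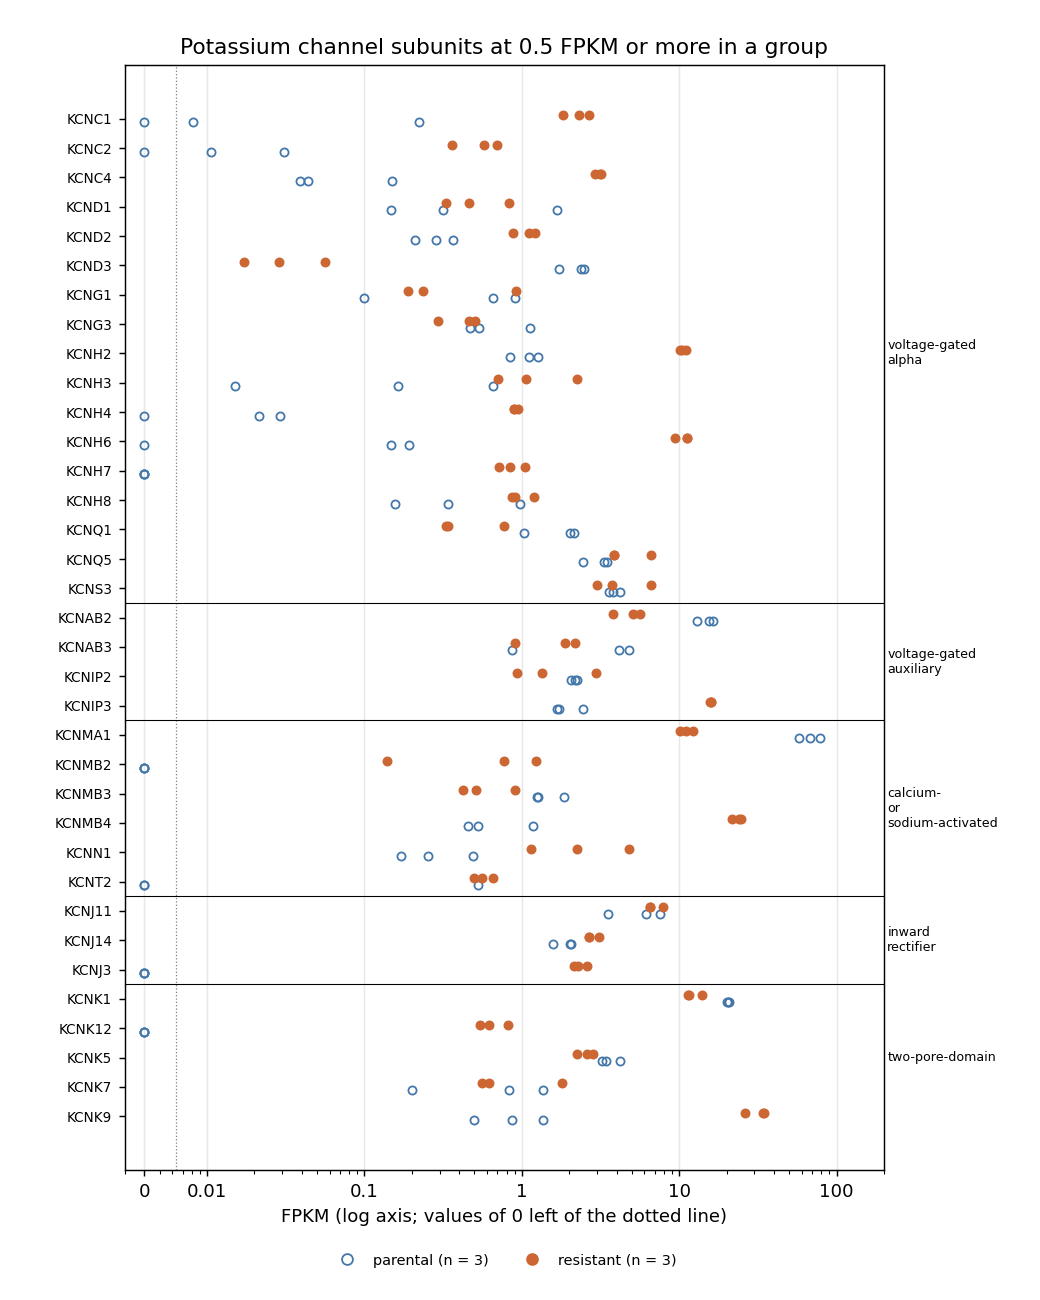
Rows are subunits with a mean of at least 0.5 FPKM in a group, and each point is a library on a log axis of FPKM, with open blue points for the 3 parental and filled orange points for the 3 resistant libraries, and values of 0 set left of the dotted line. KCNC4, KCNH6, KCNMB4 and KCNK9 show wide gaps to the right in resistant cells, and KCND3 and KCNMA1 show gaps to the left.

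The BK channel subunits went in opposite directions. KCNMA1, which encodes the pore-forming alpha subunit (chromosome 10, 76869601 to 77638369, GRCh38, minus strand), was at 57.8, 78.7 and 67.8 FPKM in parental and at 11.1, 10.1 and 12.3 FPKM in resistant libraries. It was therefore lower in all 3 resistant libraries, with a log2 fold change of −2.59 (standard error 0.14, adjusted p = 4.19e-05 in limma after Benjamini-Hochberg correction). KCNMB4, the beta subunit best known from neurons (chromosome 12, 70366290 to 70434292, plus strand), was at 1.18, 0.454 and 0.528 FPKM in parental and at 21.7, 23.9 and 24.6 FPKM in resistant libraries. Its groups were far apart, with a log2 fold change of 4.94 (standard error 0.33, adjusted p = 8.93e-05). The ratio of KCNMB4 to KCNMA1 within a library, a quantity chosen after the values had been seen, was 0.0113 ± 0.00791 (SD, n = 3) in parental and 2.11 ± 0.225 (SD, n = 3) in resistant cells. The groups did not overlap, and an exact two-sided permutation test of the log2 ratio gave p = 0.1, the smallest that 3 against 3 libraries allow. Since every resistant value was above the parental ones for KCNMB4 and below them for KCNMA1, this outcome was fixed and adds no evidence. KCNMB3, another beta subunit, was at 1.27, 1.86 and 1.26 FPKM in parental and at 0.420, 0.513 and 0.907 FPKM in resistant libraries. This lower level (log2 fold change −1.17, adjusted p = 0.0414) passed the threshold narrowly, and the adjusted p was between 0.0826 and 0.124 without any single one of parental replicates 0, 1 and 2 and resistant replicates 0 and 1. KCNMB2, a beta subunit that can inactivate the channel, was listed at 0 in all parental libraries and at 1.23, 0.138 and 0.772 FPKM in the resistant libraries (adjusted p = 0.0213). Its call was lost without any library other than resistant replicate 1, with adjusted p from 0.0511 to 0.0708. The antisense gene KCNMB2-AS1 overlaps it and was at 0.347, 0.152 and 0.234 FPKM in parental and at 6.31, 6.51 and 6.36 FPKM in resistant libraries. Whether the authors' estimates used strand is not stated, so reads of the KCNMB2 pair may not be told apart. KCNMB1 and KCNU1, the beta subunit of smooth muscle and a sperm channel subunit, were below 0.1 FPKM on average and not tested.

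BK channels of LNCaP-lineage cells also carry the gamma subunit LRRC26, which lets them open at lower voltage. LRRC26 is not a KCN gene and was taken from the list of partner genes. It was at 22.9, 58.6 and 14.3 FPKM in parental and at 1.64, 1.18 and 1.22 FPKM in resistant libraries. All 3 resistant values lay below the parental ones (log2 fold change −4.23, standard error 0.50, adjusted p = 8.51e-04). The related LRRC38 and LRRC52 were at 0 in every library, and LRRC55 was above 0 in a single library, at 0.0115 FPKM.

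**Figure D3:**
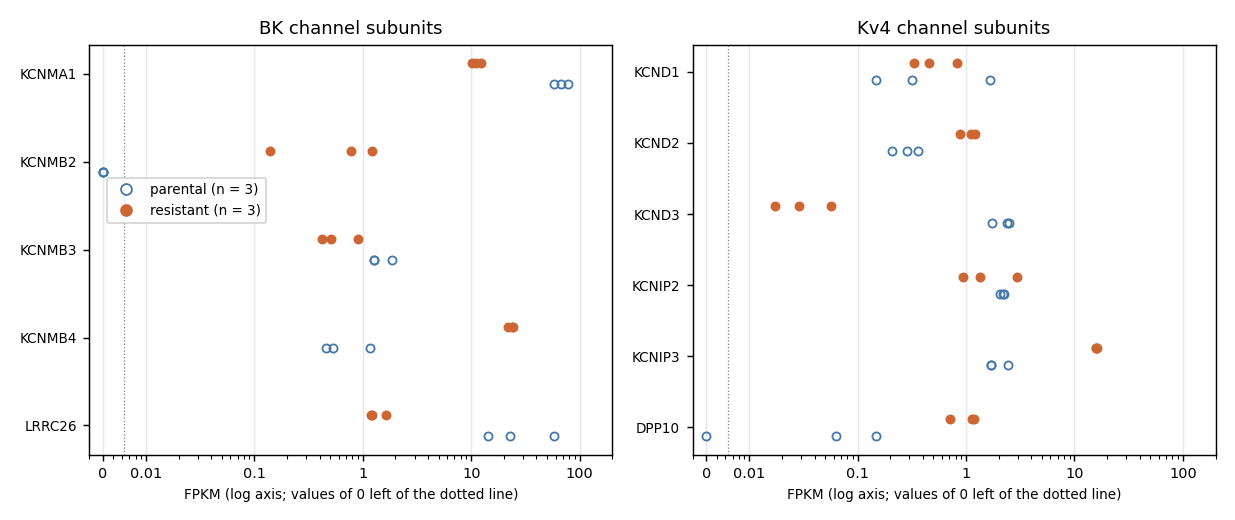
Points are single libraries on a log axis of FPKM, open blue for parental and filled orange for resistant, for the BK channel subunits with LRRC26 (left) and for the Kv4 channel subunits with KCNIP and DPP10 partners (right). KCNMA1 and LRRC26 are lower and KCNMB4 is higher in resistant cells, and KCND3 is lower while KCND2, KCNIP3 and DPP10 are higher.

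Among the other calcium- and sodium-activated subunits, KCNN1, a small-conductance channel gated through calmodulin, was at 0.252, 0.490 and 0.169 FPKM in parental and at 4.78, 1.15 and 2.23 FPKM in resistant libraries. The resistant values were higher in all 3 libraries but spread widely (log2 fold change 2.66, standard error 0.58, adjusted p = 0.0109), and the adjusted p was 0.0511 without parental replicate 2. KCNN4, the intermediate-conductance channel, was at 0.0585, 0 and 0 FPKM in parental and at 0.858, 0.164 and 0.358 FPKM in resistant libraries (adjusted p = 0.0325). Its call was lost without parental replicate 1, parental replicate 2 or resistant replicate 2, with adjusted p of 0.0758, 0.0812 and 0.0682. KCNN3 had a mean of 0.0506 FPKM in parental and 0.162 FPKM in resistant cells and did not pass the test (adjusted p = 0.408). The sodium-activated KCNT2 was at 0, 0.524 and 0 FPKM in parental and at 0.50, 0.559 and 0.660 FPKM in resistant libraries. Parental replicate 1 alone reached the resistant range, and the adjusted p was 0.102 with all libraries, 0.00301 without this one and 0.199 to 0.263 without any other single library. KCNT1 had a mean of 0.0654 FPKM in parental and 0.185 FPKM in resistant cells without overlap, with an adjusted p of 0.172. The whole class of 11 genes had 9 tested, with 4 higher and 2 lower, or 44.4% and 22.2%. The background was 22.1% and 22.3% of all genes and 28.9% and 26.7% of protein-coding genes tested. Of the 4 higher, 2 had a parental mean below 0.1 FPKM and could pass the filter only through their resistant values.

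The Kv4 channels, which carry fast A-type currents, went in opposite directions in 2 of their 3 alpha subunits. KCND3 (chromosome 1, 111770662 to 111989668, minus strand) was at 2.48, 2.38 and 1.72 FPKM in parental and at 0.0562, 0.0172 and 0.0288 FPKM in resistant libraries. Every resistant value was far below the parental ones, with a log2 fold change of −4.09 (standard error 0.35, adjusted p = 2.42e-04). KCND2 (chromosome 7, 120273175 to 120750337, plus strand) was at 0.284, 0.364 and 0.209 FPKM in parental and at 1.22, 1.11 and 0.881 FPKM in resistant libraries. It was higher in each resistant library, with a log2 fold change of 1.61 (standard error 0.34, adjusted p = 0.00943). KCND1 was at 0.316, 0.147 and 1.66 FPKM in parental and at 0.825, 0.331 and 0.459 FPKM in resistant libraries, and these values overlap (adjusted p = 0.934). The ratio of KCND2 to KCND3, also chosen after the values had been seen, was 0.130 ± 0.0205 (SD, n = 3) in parental and 38.9 ± 22.6 (SD, n = 3) in resistant cells (exact two-sided permutation test of log2 ratios, p = 0.1). This p was likewise fixed by the values of the single genes and adds no evidence.

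KCNIP3, a calcium-binding protein that is both a Kv4 partner and the transcriptional repressor DREAM (chromosome 2, 95297327 to 95386077, plus strand), was at 1.68, 2.46 and 1.72 FPKM in parental and at 15.7, 16.0 and 15.8 FPKM in resistant libraries. Its resistant values were close to each other and far above the parental ones (log2 fold change 2.98, standard error 0.18, adjusted p = 6.34e-05). KCNIP2, the cardiac Kv4 partner, was at 2.18, 2.26 and 2.06 FPKM in parental and at 0.938, 1.35 and 2.94 FPKM in resistant libraries. Resistant replicate 2 lay above the parental range and the others below it, so that no difference was detected (adjusted p = 0.408). The antisense gene KCNIP2-AS1 overlaps KCNIP2 and was at 0.303 to 0.996 FPKM in parental and 0.0877 to 0.435 FPKM in resistant libraries. DPP10, a membrane protein that speeds Kv4 gating and belongs to the partner list, was at 0.148, 0.0630 and 0 FPKM in parental and at 1.14, 0.712 and 1.18 FPKM in resistant libraries (log2 fold change 2.77, adjusted p = 0.00433).

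KCNAB2, the beta subunit of Kv1 channels with a reductase fold, was the auxiliary subunit with the highest parental level, at 13.0, 16.5 and 15.5 FPKM. It was at 3.79, 5.67 and 5.12 FPKM in resistant libraries, below every parental value (log2 fold change −1.62, standard error 0.19, adjusted p = 7.91e-04). KCNAB3, a related beta subunit, was at 4.14, 0.871 and 4.80 FPKM in parental and at 0.906, 1.88 and 2.16 FPKM in resistant libraries. Parental replicate 1 lay below all resistant values, and the adjusted p was 0.422. Of the small KCNE subunits, which modify KCNQ and KCNH channels, only KCNE1 was tested, with means of 0.181 FPKM in parental and 0.107 FPKM in resistant cells (adjusted p = 0.767). KCNE1 has a near-identical copy on the same chromosome in GRCh38, so its values are uncertain. The class of 12 auxiliary genes had 5 tested, with KCNIP3 higher and KCNAB2 lower, or 20% each. The background was 22.1% and 22.3% of all genes and 28.9% and 26.7% of protein-coding genes tested.

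The Kv1 alpha subunits that KCNAB2 binds were near the floor in both groups. KCNA1 was above 0.1 FPKM in parental replicate 1 only, at 0.688 FPKM (adjusted p = 0.432), and KCNA4 was at 0.140, 0 and 0 FPKM in parental and at 0.254, 0.203 and 0.492 FPKM in resistant libraries (adjusted p = 0.0635). The other 6 Kv1 genes, KCNA2, KCNA3, KCNA5, KCNA6, KCNA7 and KCNA10, had means below 0.1 FPKM.

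Alpha subunits of the Kv3 family, which repolarise cells rapidly, were higher in resistant cells for the 3 genes given here. KCNC4, a Kv3 subunit that inactivates rapidly, was at 0.0392, 0.149 and 0.0437 FPKM in parental and at 3.11, 3.19 and 2.92 FPKM in resistant libraries. KCNC1, which supports fast repetitive firing in neurons, was at 0.00819, 0 and 0.222 FPKM in parental and at 2.66, 1.82 and 2.30 FPKM in resistant libraries. KCNC2 was lower in level, with 0.0106, 0.0307 and 0 FPKM in parental and 0.360, 0.696 and 0.571 FPKM in resistant libraries. These 3 genes were higher without overlap, with log2 fold changes of 4.21, 3.95 and 2.47 and adjusted p of 2.33e-04, 0.00162 and 0.00440. Groups without overlap, in either direction, were seen in 54.8% of all genes and 66.3% of protein-coding genes tested. Each of the 3 had a parental mean below 0.1 FPKM and could pass the filter only through its resistant values. KCNB2 was at 0 in every library.

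Of the KCNH family, KCNH2 and KCNH6 reached the highest levels. KCNH2, or hERG, repolarises the heart (chromosome 7, 150944961 to 150978321, minus strand) and was at 1.10, 0.842 and 1.27 FPKM in parental and at 10.1, 11 and 10.3 FPKM in resistant libraries. Every resistant value exceeded every parental value, with a log2 fold change of 3.19 (standard error 0.20, adjusted p = 6.82e-05). KCNH6, its close relative of neurons and endocrine cells (chromosome 17, 63523334 to 63548977, plus strand), was at 0.147, 0 and 0.193 FPKM in parental and at 11.2, 9.43 and 11.3 FPKM in resistant libraries. It had the largest log2 fold change among members above 0 in both groups, 5.79 (standard error 0.45, adjusted p = 1.59e-04). KCNH7, the third ERG gene, was listed at 0 in all parental libraries and at 0.842, 0.713 and 1.05 FPKM in the resistant libraries (adjusted p = 8.43e-04). KCNH4, of the ELK subfamily, was at 0.0292, 0 and 0.0214 FPKM in parental and at 0.898, 0.945 and 0.888 FPKM in resistant libraries (log2 fold change 3.12, adjusted p = 8.56e-04). The other ELK genes were higher on average without passing the threshold. KCNH3 was at 0.0151, 0.162 and 0.653 FPKM in parental and at 1.07, 0.708 and 2.23 FPKM in resistant libraries, with an adjusted p of 0.0610 that became 0.0278 without parental replicate 2 and 0.0960 to 0.195 without any other single library. KCNH8 was at 0.340, 0.978 and 0.156 FPKM in parental and at 0.909, 1.20 and 0.872 FPKM in resistant libraries, with an adjusted p of 0.154 that became 0.0264 without parental replicate 1 and 0.252 to 0.353 without any other single library. The EAG genes KCNH1 and KCNH5 had means below 0.1 FPKM. Of the 8 KCNH genes, 6 were tested and 4, or 66.7%, were higher, against 22.1% of all genes and 28.9% of protein-coding genes tested. KCNH4 and KCNH7 had a parental mean below 0.1 FPKM and could pass the filter only through their resistant values.

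KCNQ genes encode slow potassium currents of neurons, heart and epithelia. KCNQ1, the epithelial and cardiac member, was at 2.14, 2.01 and 1.03 FPKM in parental and at 0.341, 0.330 and 0.765 FPKM in resistant libraries. It was lower without overlap (log2 fold change −1.68, standard error 0.45, adjusted p = 0.0227), but the adjusted p was 0.0795 to 0.0908 without parental replicate 0 or 1 or without resistant replicate 0 or 1. KCNQ1OT1, the antisense transcript within KCNQ1, was at 0.79 to 1.02 FPKM in parental and 0.606 to 0.676 FPKM in resistant libraries and did not pass the test (adjusted p = 0.246). KCNQ5 was at 3.32, 2.46 and 3.49 FPKM in parental and at 3.87, 6.61 and 3.86 FPKM in resistant libraries without overlap (adjusted p = 0.133). KCNQ3 had a mean below 0.1 FPKM.

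Of the 10 silent modifier genes, 4 were tested and KCNS2 alone, or 25%, was higher. Over all genes tested 22.1% were higher, and over protein-coding genes 28.9%. KCNS2 was at 0, 0.0420 and 0 FPKM in parental and 0.409, 0.533 and 0.287 FPKM in resistant libraries (adjusted p = 0.00855). Its parental mean was below 0.1 FPKM, so it could pass the filter only through its resistant values. KCNS3, a modifier of delayed rectifier channels, was at 4.20, 3.81 and 3.57 FPKM in parental and at 6.59, 3.72 and 3.01 FPKM in resistant libraries (adjusted p = 0.771). KCNG1 was at 0.899, 0.0995 and 0.660 FPKM in parental and at 0.919, 0.235 and 0.188 FPKM in resistant libraries (adjusted p = 0.857). KCNG3 was at 0.531, 1.13 and 0.472 FPKM in parental and at 0.503, 0.292 and 0.461 FPKM in resistant libraries (adjusted p = 0.330). For these KCNS3 and KCNG genes the groups overlapped. KCNF1, KCNG2, KCNG4, KCNS1, KCNV1 and KCNV2 had means below 0.1 FPKM. All voltage-gated alpha subunits together numbered 40, with 24 tested, 11 higher and 2 lower. These calls were 45.8% and 8.33% of the tested, against 22.1% and 22.3% of all genes and 28.9% and 26.7% of protein-coding genes tested. Of the 11 higher, 7 had a parental mean below 0.1 FPKM and could pass the filter only through their resistant values.

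**Figure D4:**
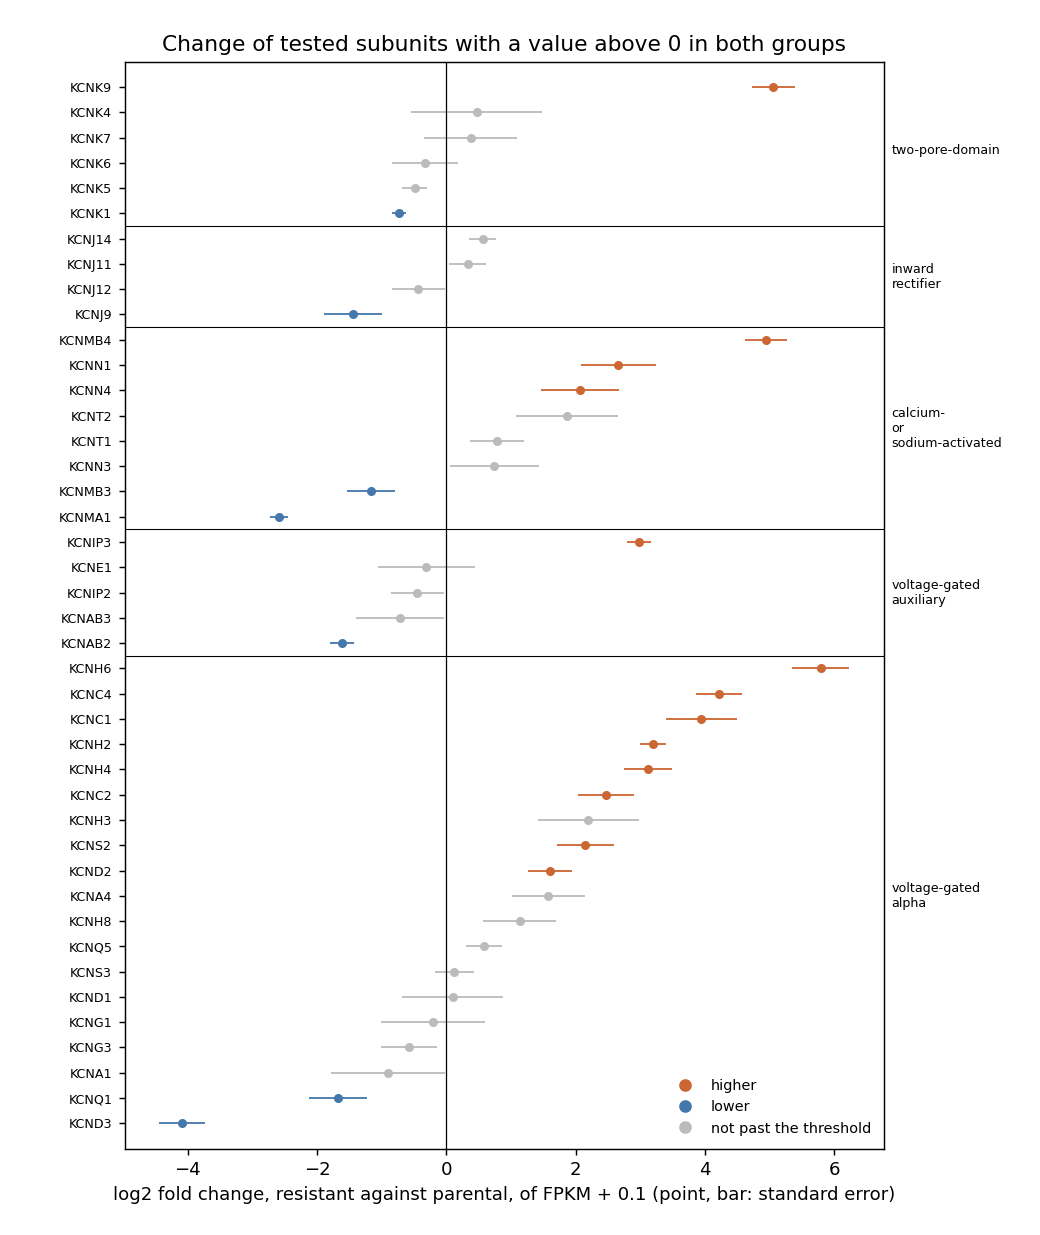
Points give the limma log2 fold change of resistant against parental cells on the scale of FPKM + 0.1, with bars for the standard error, for tested members above 0 in both groups, by class. Orange points passed the threshold as higher, blue points as lower, and grey points did not pass; KCNH6 lies farthest to the right at 5.79 and KCND3 farthest to the left at −4.09.

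Inward rectifiers were mostly at or near 0. KCNJ3, a G protein-gated channel subunit of heart and neurons (chromosome 2, 154697855 to 154858354, plus strand), was listed at 0 in all parental libraries and at 2.16, 2.58 and 2.26 FPKM in the resistant libraries (adjusted p = 1.19e-04). KCNJ9, another G protein-gated subunit, went the other way, with 0.372, 0.606 and 0.357 FPKM in parental and 0.175, 0.0467 and 0.0850 FPKM in resistant libraries (log2 fold change −1.45, adjusted p = 0.0391). Its adjusted p was 0.0556 to 0.0703 without parental replicate 0 or 1 or without resistant replicate 1 or 2. KCNJ5 and KCNJ6, with which KCNJ3 commonly assembles, had means below 0.1 FPKM. KCNJ11, the pore of the ATP-sensitive channel, was at 3.55, 7.59 and 6.18 FPKM in parental and at 6.49, 6.57 and 7.86 FPKM in resistant libraries, which overlap (adjusted p = 0.391). ABCC8, the sulfonylurea receptor that joins KCNJ11, was at 1.00, 3.30 and 2.81 FPKM in parental and at 1.32, 0.804 and 1.34 FPKM in resistant libraries, and it did not pass the threshold either. KCNJ14 was at 2.04, 1.58 and 2.03 FPKM in parental and at 2.68, 2.67 and 3.09 FPKM in resistant libraries without overlap, with an adjusted p of 0.0688. KCNJ12 had means of 0.181 and 0.110 FPKM (adjusted p = 0.415) and shares most of its sequence with KCNJ18, so that its values are uncertain. Of 16 KCNJ genes, 5 were tested, with 1 higher and 1 lower, or 20% each. The background was 22.1% and 22.3% of all genes and 28.9% and 26.7% of protein-coding genes tested. KCNJ3 had a parental mean below 0.1 FPKM and could pass the filter only through its resistant values. The 11 not tested were KCNJ1, KCNJ2, KCNJ4, KCNJ5, KCNJ6, KCNJ8, KCNJ10, KCNJ13, KCNJ15, KCNJ16 and KCNJ18.

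The tandem-pore-domain channels, which carry background currents, included the member with the highest resistant level. KCNK9, the acid-sensitive TASK-3 channel (chromosome 8, 139600838 to 139704109, minus strand), was at 0.493, 0.865 and 1.36 FPKM in parental and at 26.0, 33.9 and 34.7 FPKM in resistant libraries. Its lowest resistant value was far above its highest parental value, with a log2 fold change of 5.06 (standard error 0.34, adjusted p = 9.00e-05). KCNK3, or TASK-1, which can pair with KCNK9, was at 0 in all parental libraries and at 0.547, 0.260 and 0.316 FPKM in the resistant libraries (adjusted p = 0.00812). KCNK1, or TWIK-1, was at 20.4, 20.8 and 20.1 FPKM in parental and at 14.0, 11.4 and 11.5 FPKM in resistant libraries. It was lower in all 3 resistant libraries by a modest step (log2 fold change −0.73, standard error 0.11, adjusted p = 0.00245) and was the lower member with the smallest change. KCNK12 was at 0 in all parental libraries and at 0.539, 0.617 and 0.814 FPKM in the resistant libraries (adjusted p = 0.00155). The mechanosensitive KCNK2, or TREK-1, and KCNK15 were also at 0 in all parental libraries, with 0.238, 0.200 and 0.713 FPKM and with 0.210, 0.317 and 0.279 FPKM in the resistant libraries (adjusted p = 0.0193 and 0.0121). KCNK5, or TASK-2, was at 3.42, 3.25 and 4.19 FPKM in parental and at 2.83, 2.58 and 2.23 FPKM in resistant libraries without overlap, with an adjusted p of 0.0873. KCNK7 was at 0.200, 1.36 and 0.827 FPKM in parental and at 0.616, 0.555 and 1.79 FPKM in resistant libraries (adjusted p = 0.701). KCNK6 and KCNK4 did not pass the test, and KCNK4 overlaps the read-through gene KCNK4-TEX40, which was at 0.00862 to 1.42 FPKM in parental and 3.25 to 5.96 FPKM in resistant libraries. Of 15 KCNK genes, 10 were tested, with 5 higher and 1 lower, or 50% and 10%. The background was 22.1% and 22.3% of all genes and 28.9% and 26.7% of protein-coding genes tested. Of the 5 higher, 4 had a parental mean below 0.1 FPKM and could pass the filter only through their resistant values. KCNK10, KCNK13, KCNK16, KCNK17 and KCNK18 were not tested.

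Altogether 41 members had a mean below 0.1 FPKM, and the highest single value among them was 0.391 FPKM, for KCNJ13 in resistant replicate 1. Beside those already given, they were KCNAB1, KCNE2, KCNE3, KCNE4, KCNE5, KCNIP1 and KCNIP4. Of the 41, 12 were at 0 in every library. When every member above 0 in a library was tested, 82 were tested, with 23 higher and 6 lower. The share of all genes called under this filter was not counted, so these counts have no background beside them.

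Members that lie close to each other did not all move together. KCNC4 and KCND3, 1490 kb apart on chromosome 1, were higher and lower. KCNMB3 and KCNMB2, 392 kb apart on chromosome 3, were lower and higher, though both calls were lost when some single libraries were left out. KCNC1 and KCNJ11, 345 kb apart on chromosome 11, were higher and without a detected difference.

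Promoter sequence is shown for KCNMA1, for the opposed pair KCND3 and KCND2, and for KCNH6, the member with the largest fold change among those above 0 in both groups, as the 250 bases before the most upstream RefSeq start (GRCh38.p14, written 5′ to 3′ on the strand of the gene). RefSeq promoters were matched for 70 of the 94 members, or 74.5%, which is too few for a comparison of promoters between groups of members. Capitals mark GC boxes (GGGCGG, searched on both strands and with overlap allowed) and, in KCNH6, the left part TTCAGCACC and the right part GGACAGC of the RE1 element bound by the neuronal repressor REST, also searched on both strands. The windows are chr10:77637809-77638058 on the minus strand for KCNMA1, chr1:111989669-111989918 on the minus strand for KCND3, chr7:120272925-120273174 on the plus strand for KCND2 and chr17:63523108-63523357 on the plus strand for KCNH6. RefSeq starts can differ from the GENCODE coordinates given earlier for these genes. By those coordinates the KCNMA1 window lies within the gene, and the KCNH6 window reaches past the start of the gene.
KCNMA1: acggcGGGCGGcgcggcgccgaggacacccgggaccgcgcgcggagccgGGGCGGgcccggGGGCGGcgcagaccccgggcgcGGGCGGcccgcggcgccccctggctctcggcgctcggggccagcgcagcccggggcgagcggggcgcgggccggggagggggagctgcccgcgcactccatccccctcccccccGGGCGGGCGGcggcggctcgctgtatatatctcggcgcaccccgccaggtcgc
KCND3: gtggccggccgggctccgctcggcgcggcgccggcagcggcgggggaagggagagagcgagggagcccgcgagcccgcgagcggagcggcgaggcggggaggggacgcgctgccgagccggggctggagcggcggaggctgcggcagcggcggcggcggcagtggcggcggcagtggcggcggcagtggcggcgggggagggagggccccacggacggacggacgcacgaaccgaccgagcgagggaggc
KCND2: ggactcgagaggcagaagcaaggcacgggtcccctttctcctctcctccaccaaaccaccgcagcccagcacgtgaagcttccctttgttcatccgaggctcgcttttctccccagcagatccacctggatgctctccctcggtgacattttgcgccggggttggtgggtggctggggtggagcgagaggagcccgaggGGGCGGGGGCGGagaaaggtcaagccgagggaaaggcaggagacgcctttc
KCNH6: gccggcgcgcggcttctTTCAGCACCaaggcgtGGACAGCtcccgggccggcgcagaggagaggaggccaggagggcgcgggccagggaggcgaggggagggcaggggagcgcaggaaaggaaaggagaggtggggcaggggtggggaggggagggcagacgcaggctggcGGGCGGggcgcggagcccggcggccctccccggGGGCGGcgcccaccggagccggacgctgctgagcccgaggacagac
GC boxes numbered 6 in KCNMA1, 0 in KCND3, 2 in KCND2 and 2 in KCNH6, and 42.2% of the 27305 promoters of the same length held at least 1. GC content was 85.6, 82.8, 63.6 and 77.6% in this order, against a median of 57.6% over all promoters. The TATA box TATAAA, on either strand, was in none of these 4 windows, and 11.2% of all promoters held it. Both RE1 parts, at any spacing, order or strand, were found in 11 of all promoters, or 0.0403%, and KCNH6 and KCNK3 were among these 11. Of the others, CELSR3 and UNC80 were higher, SLC39A3 was lower and GRM2 did not pass the threshold. BSX and LHX3 were not tested, and CDH2-AS1, LOC105376739 and PRPF19-DT had no matching symbol in the expression table. In KCNH6 the RE1 parts lie on the same strand with a gap wider than in the usual element. The search was chosen after the KCNH6 sequence had been read, so that its match was fixed beforehand. Such matches describe the letters in the window only.

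The list of partner genes held 47 genes that assemble with, anchor or turn over potassium channels, or carry other ions that act with them. Of these, 28 were tested, with 14 higher and 6 lower in enzalutamide resistant cells, or 50% and 21.4%. Over all genes tested 22.1% were higher and 22.3% lower, and over protein-coding genes 28.9% and 26.7%. Of the 14, 6 had a parental mean below 0.1 FPKM and could pass the filter only through their resistant values. For the 21 partners with at least 0.1 FPKM in both groups, 38.1% were higher and 23.8% lower. Under the same limit the shares were 19.8% and 24.6% of all genes, and 25.7% and 28.4% of protein-coding genes. Among the higher were ATP1B1, HCN2, HCN3, CACNA1B, CACNA1G, SCN2A, SCN8A, SCN9A, DPP10, AKAP9, NEDD4 and CALM3, and among the lower were LRRC26, NEDD4L, ATP1B3 and KCNRG. CACNA1B, the N-type calcium channel of nerve terminals, was at 0.0299, 0.0260 and 0.0649 FPKM in parental and at 2.90, 2.69 and 3.39 FPKM in resistant libraries (log2 fold change 4.47, adjusted p = 1.21e-04). SCN8A, a neuronal sodium channel, was at 1.04, 1.55 and 0.485 FPKM in parental and at 9.58, 12.8 and 11 FPKM in resistant libraries (log2 fold change 3.44, adjusted p = 7.35e-04). NEDD4L, a ubiquitin ligase that removes several channels from the membrane, was at 411, 365 and 400 FPKM in parental and at 78.1, 108 and 78.4 FPKM in resistant libraries (log2 fold change −2.17, adjusted p = 7.77e-05). ATP1B3, a beta subunit of the sodium pump, fell from a mean of 146 FPKM to 33.8 FPKM (log2 fold change −2.10, adjusted p = 3.75e-05). In each of these genes the groups did not overlap.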

How the data were processed

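RNA-Seq values of 3 C4-2B parental and 3 C4-2B enzalutamide resistant libraries were used. The authors used TrimGalore 0.4.3 for trimming, STAR 2.5.3 for alignment (GRCh38) and Cufflinks 2.2.1 with GENCODE 25 for expression, and deposited a table that was read as FPKM from these tools and the form of the values, since its header names no unit. The scaling between libraries is not given in the sources used here. The table holds no counts, so no count test or counting interval was possible, and the depth was estimated with fragments assumed to be 200 bases. All 94 members matched a gene identifier of GENCODE v44, which gave the coordinates.

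The comparison used limma 3.58.1 under R 4.3.3 (lmFit, eBayes with a mean-variance trend, two-sided) on log2(FPKM + 0.1) for the 24468 genes averaging 0.1 FPKM or more, with Benjamini-Hochberg adjustment and a threshold of 0.05. A fold change on this scale understates the change of low genes. Members, partner genes and marker lists were chosen with earlier results of these data known. Members with a mean of at least 0.5 FPKM in a group are given per library, and partner genes by the 4 largest changes in each direction above that level, except for some members, partner and marker genes that enter the counts and sums but are not reported here. ABCC8 and DPP10 values, overlapping genes, tested members that are below that level and not called, the ratios and the promoter motifs were chosen after values were seen. Alternatives covered the pseudocount, the filter, the scaling, the trend, the threshold, each library left out in turn and the replicate number as a block. Tables were handled in Python 3.11.15 with pandas 2.3.3 and figures drawn with matplotlib 3.10.9.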

Additional observations from a re-analysis of the deposited data

How the results depend on the processing

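Of the 29 called members, 21 kept their direction and stayed past the threshold under all 15 refits in which they were tested, and the other 8 (KCNJ9, KCNK2, KCNK15, KCNMB2, KCNMB3, KCNN1, KCNN4 and KCNQ1) were lost under at least 1. No called member turned its direction. The number of higher members was 11 when a mean of at least 1 FPKM was required, which leaves 26 members, and was 20 to 22 with each library left out. The number of lower members was 4 at an adjusted p below 0.01 and 4 to 6 with each library left out, with 4 without parental replicate 0, parental replicate 1 or resistant replicate 1. The share of all genes called under each of these settings was not counted, so these numbers have no background beside them. The median log2 fold change of the members was 0.34 with a pseudocount of 1 FPKM, 1.38 with 0.01 FPKM, 0.44 above 1 FPKM, 0.33 with every member above 0 in a library, 0.53 after quantile normalization and 0.67 to 1.19 with each library left out, the highest without parental replicate 1. Sign changes among the members given here concerned those that did not pass the threshold. KCND1 had a log2 fold change of −0.060 with a pseudocount of 1 FPKM and −0.19 after quantile normalization. With each library left out, the log2 fold change was −0.50 to 0.92 for KCND1, −0.92 to 0.25 for KCNG1, −0.20 to 0.35 for KCNS3 and −0.28 to 0.87 for KCNK7. With the replicate number as a block, 21 members were higher and 4 lower, again without a count over all genes. No source states that equal numbers mark a shared culture or day. Deviations of same-numbered libraries from their group means correlated at −0.0030 to 0.017, and those of differently numbered libraries at −0.0260 to 0.0201. Such correlations over few libraries and many low genes cannot exclude a pairing. Low members rest on few reads, and the causes of these differences were not tested.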
